A study of Mus musculus with 12 samples.

Results

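The genes described here encode the enzymes, carriers and regulators of fatty acid oxidation and ketone body metabolism, together with a few targets of the nuclear receptor PPARA. They are the members, by symbol, of a list of 36 genes of the pathway. The rule uses no measured value, although the list was chosen with earlier results of these data known. Of the 36, 35 had a probe set among the 15780 genes of the array table that carried a single symbol, and all 35 passed the filter on dim genes that left 9496 genes for testing. Acsl1, an acyl-CoA synthetase, was not analysed here.

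RNA was measured on 12 Affymetrix expression arrays, 3 in each of 4 groups. The WT IP group is RNA precipitated with an antibody against CNOT6L, a subunit of CCR4-NOT, the complex that trims mRNA poly(A) tails, from wild-type primary hepatocytes. The KO IP group is the same precipitation from Cnot6l knockout hepatocytes, which the study used as its negative control, and the KO input and WT input groups are the total RNA of the same cell preparations. All mice were male C57BL/6J animals of 8 weeks, and the sources used here describe the knockout allele no further. The titles call the replicates biological but do not otherwise say that each came from a separate mouse, so the p-values measure the spread between these samples.

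Fatty acids enter the hepatocyte, are activated to acyl-CoA esters, cross into the mitochondrion as carnitine esters and are shortened by repeated rounds of dehydrogenation, hydration, a further dehydrogenation and thiolysis. Peroxisomes run a parallel pathway for very long chains. In the fasting liver the acetyl-CoA so formed is turned into ketone bodies, and PPARA, helped by its coactivator PGC-1α, switches on many of these genes together.

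Levels are log2 values as deposited, so a difference of 1 is a doubling of signal, and a level is never compared here between one gene's probe set and another's. Array medians lay between 6.31 and 6.45. The targeted gene did not mark the knockout cells: Cnot6l averaged 9.23 ± 0.11 in KO inputs and 9.02 ± 0.54 in WT inputs (SD, n = 3 each). The sources do not say which exons were deleted, so this level cannot serve as a check of the labels. The hepatocyte markers, 9 of 10 listed being on the array, averaged 10.74 to 11.05 in WT IP arrays, 10.68 to 11.01 in KO IP arrays, 11.07 to 11.40 in KO inputs and 11.00 to 11.48 in WT inputs. The 7 Kupffer cell markers averaged 5.76 to 5.96 in WT IP, 5.61 to 5.93 in KO IP, 5.41 to 5.66 in KO input and 5.49 to 5.63 in WT input arrays. Of these 7, 5 were below the filter on dim genes, and Cd68, the brightest, ran the other way, averaging 10.61 in WT IP, 10.87 in KO IP, 11.89 in KO input and 11.77 in WT input arrays. The part of these cells in the IP differences below was not tested. The gap between the 3′ and 5′ control probe sets of Gapdh, a sign of RNA integrity, was 0.85 to 1.95 larger for the IP of a preparation than for its input, in all 6 preparations, and its part in those differences was not tested either.

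The arrays fell together by replicate number more than by group. After group means were removed, arrays of the same number in different groups correlated across these 35 genes at 0.433 to 0.917 (median 0.712), whereas arrays of different numbers correlated at -0.799 to 0.312. Genes within an array are not independent, so these correlations describe the arrays and carry no p-value. With group means removed they cannot weigh number against group, and the removal itself pulls unlike numbers towards negative values. RNA integrity differed between numbers, with the Gapdh gap largest in number 3 of every group. It was 2.34 in WT IP and 1.93 in KO IP, against 0.84 to 1.14 in the other IP arrays. In KO and WT inputs it was 0.27 and 0.40, against -0.01 to 0.07 in the other inputs. The same gap for actin was largest in number 3 of every group too. The part of RNA integrity in the differences between numbers was not tested. Markers of other liver cells differed between numbers, not all in the same way, and their part in the differences between numbers was not tested. The cholangiocyte markers, 4 of 5 being on the array, averaged 5.28 to 5.68 in number 1, 5.40 to 6.02 in number 2 and 6.03 to 6.29 in number 3. Of these, Krt19 alone was highest in number 3 of every group (6.67 to 7.86 there). Sox9 was highest in number 2 of WT IP (8.89) and KO IP (8.20), and Krt7 and Epcam were below the filter on dim genes. The 7 stellate cell markers averaged 5.12 to 5.74, 5.21 to 6.11 and 6.18 to 6.43 in the same order. Of the stellate markers, Col3a1 (8.65 to 9.98 in number 3) and Dcn (8.60 to 9.65) were the ones highest in number 3 of every group, while Reln was lower in number 3 than in number 2 of every group. The lymphocyte and blood markers, 4 of 6 being on the array, averaged 4.44 to 4.90 in number 1, 5.04 to 5.50 in number 2 and 4.70 to 5.27 in number 3. Of these, Alas2 alone was highest in number 2 of every group (6.56 to 7.45 there). Cd3e was highest in number 1 of KO input (6.60), and Ptprc and Nkg7 were below the filter on dim genes. The Kupffer cell markers overlapped between all numbers. In bulk RNA, fewer cells of a type and less RNA per cell cannot be told apart. The median share of the sum of squares over the 35 genes was 56.5% for the replicate number and, taken separately, 21.7% for the group. Over all genes tested these medians were 47.5% and 24.1%. The range between number means exceeded the range between group means for 24 of the 35 genes (68.6%), against 62.8% of all genes tested.

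**Figure D1:**
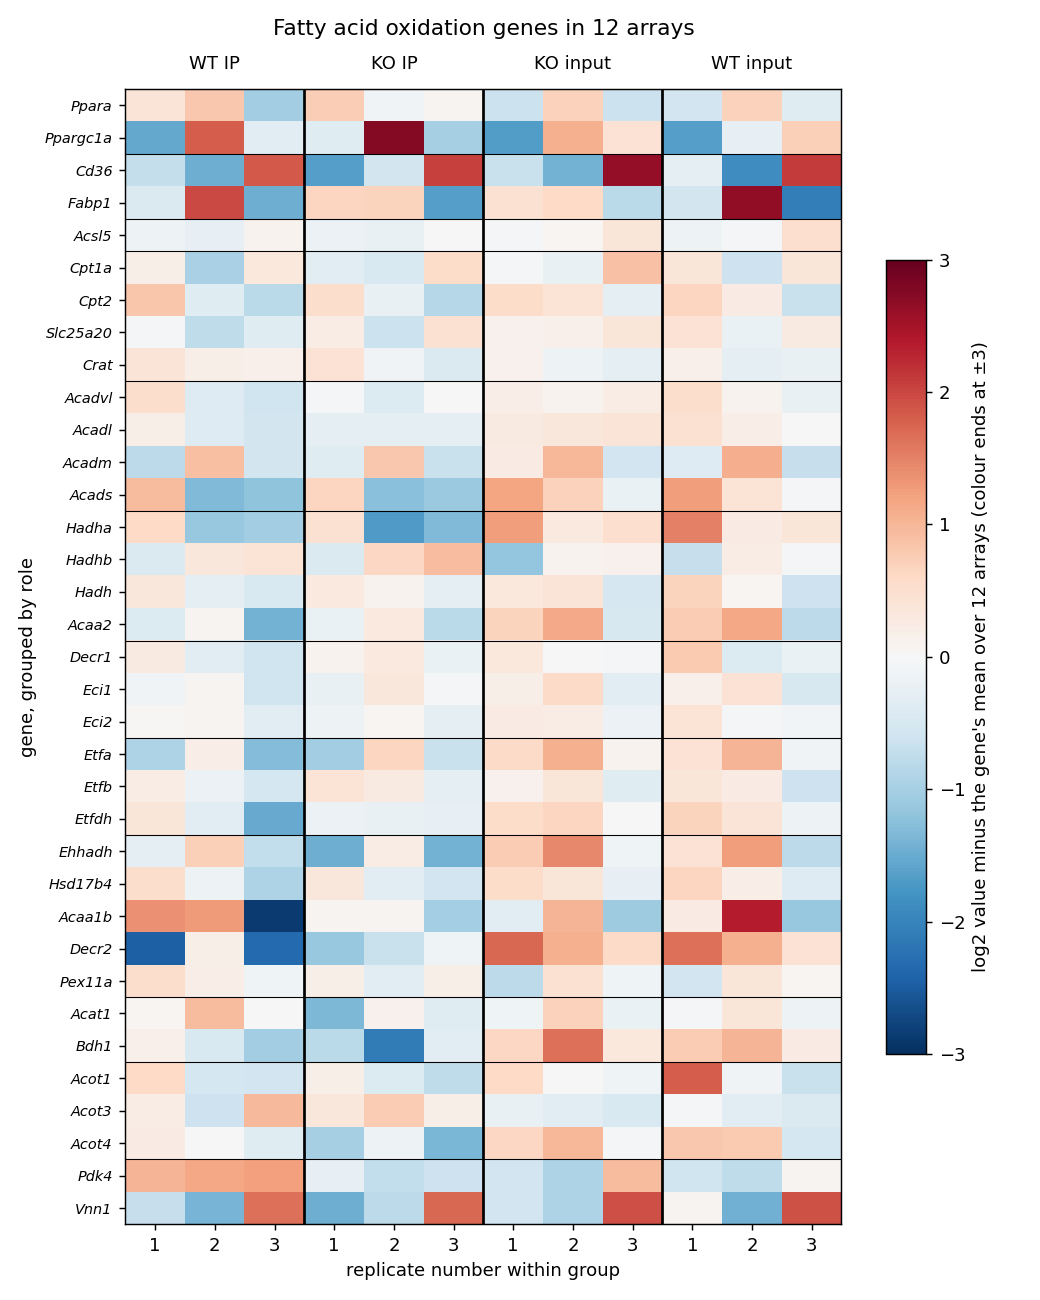
Level of each of the 35 genes in each of the 12 arrays, as the log2 value minus that gene's mean over all arrays, with genes in rows ordered by role and arrays in columns in the order WT IP, KO IP, KO input and WT input, replicates 1 to 3 within each. Cd36 and Vnn1 are high in the number 3 array of every group, and Decr2 and Bdh1 are lower in every IP array than in any input array.

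**Figure D2:**
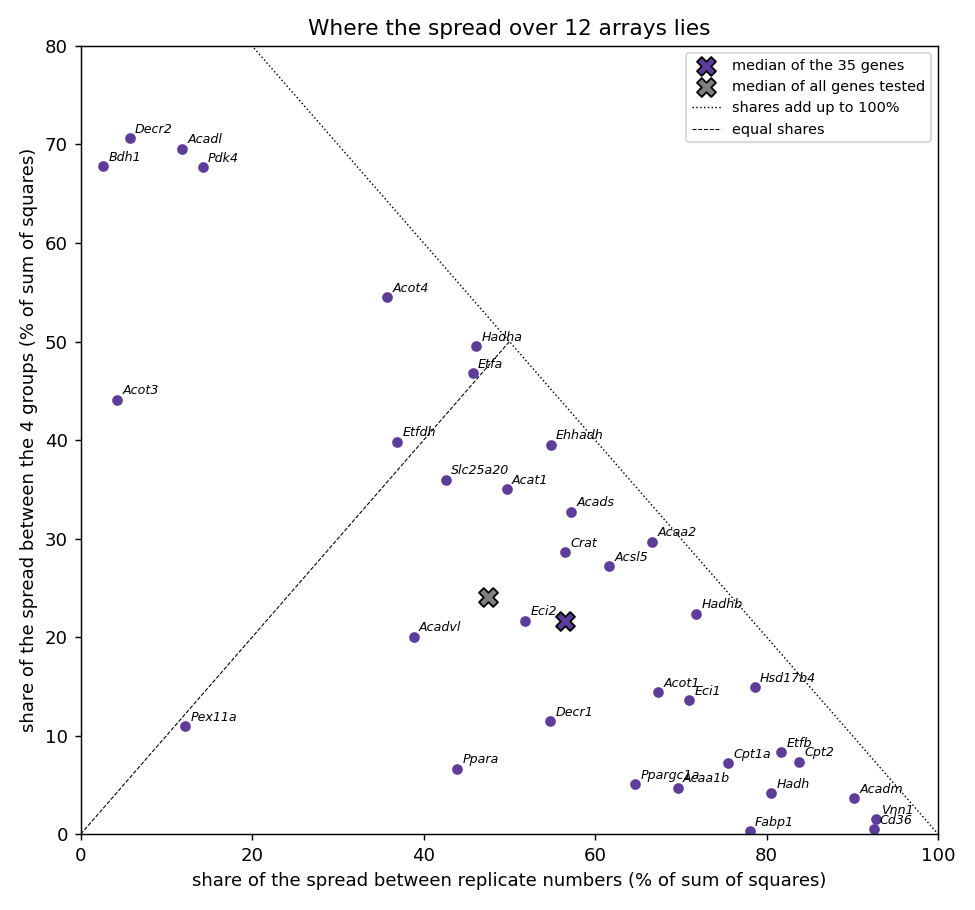
Share of the sum of squares over the 12 arrays that lay between replicate numbers (horizontal axis, percent) and between the 4 groups (vertical axis, percent), a point for each of the 35 genes and crosses for the medians of these genes and of all genes tested. Vnn1 (92.7% between numbers) and Cd36 (92.6%) lie at one end, and Decr2 (70.7% between groups) and Acadl (69.6%) at the other.

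The regulators differed more between replicate numbers than between groups. The number held 43.9% of the sum of squares for Ppara and 64.6% for Ppargc1a, and the group 6.66% and 5.08%. Ppara encodes the receptor that senses fatty acids and drives the pathway's transcription. Its level was 8.34, 8.76 and 6.90 in WT IP, 8.70, 7.84 and 8.02 in KO IP, 7.31, 8.65 and 7.30 in KO input and 7.38, 8.64 and 7.58 in WT input arrays of numbers 1, 2 and 3. Number 2 was highest in every group but KO IP, where it was lowest. All 4 groups overlapped, and the IP minus input difference was 0.13 in WT and 0.44 in KO cells. Ppargc1a, the gene of PGC-1α, had 4.30, 7.64 and 5.51 in WT IP, 5.46, 8.57 and 4.83 in KO IP, 4.16, 6.91 and 6.26 in KO input and 4.18, 5.59 and 6.53 in WT input arrays. It was lowest in number 1 in 3 of the 4 groups, with number 3 lowest in KO IP, and no group stood apart.

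The uptake genes differed between numbers and little between groups. Cd36, a fatty acid translocase of the plasma membrane, had 8.11, 7.37 and 10.68 in WT IP, 7.19, 8.30 and 10.88 in KO IP, 8.17, 7.43 and 11.48 in KO input and 8.54, 6.96 and 10.94 in WT input arrays. Number 3 was the highest in each group by more than 2 log2 units, while the group means lay between 8.72 and 9.03. Fabp1, the fatty acid binding protein of the hepatocyte cytosol, ran the other way, with 6.49, 8.90 and 5.45 in WT IP, 7.55, 7.59 and 5.26 in KO IP, 7.37, 7.52 and 6.10 in KO input and 6.38, 9.59 and 4.84 in WT input arrays. Number 3 was lowest in every group, and 78.0% of its sum of squares lay between numbers against 0.285% between groups. Vnn1, a pantetheinase and PPARA target, followed Cd36, with 10.75, 10.81, 11.04 and 11.01 in number 3 of WT IP, KO IP, KO input and WT input and between 7.63 and 9.17 in all other arrays.

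Activation and the carnitine shuttle showed small differences. Acsl5, an acyl-CoA synthetase, had 12.53, 12.45 and 12.79 in WT IP, 12.52, 12.46 and 12.71 in KO IP, 12.64, 12.76 and 13.05 in KO input and 12.55, 12.64 and 13.19 in WT input arrays, and all groups overlapped. Cpt1a, whose product on the outer mitochondrial membrane gates the entry of long chains, had 8.75, 7.62 and 8.90 in WT IP, 8.23, 8.13 and 9.13 in KO IP, 8.53, 8.36 and 9.47 in KO input and 8.94, 7.97 and 8.94 in WT input arrays. Number 2 was lowest in each group, and the group means lay between 8.42 and 8.79. Cpt2, Slc25a20 and Crat complete the shuttle on the inner membrane, through the translocase and by carnitine acetyl transfer, and the 4 shuttle genes ranged from -0.55 to 0.35 in the WT IP minus WT input difference and from -0.40 to 0.07 in the KO one.

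In wild-type cells 1 gene, Pdk4, was higher in the CNOT6L precipitate than in the input, and 4 genes of the mitochondrial and peroxisomal cycles, Acaa2, Decr2, Etfa and Hadha, were lower. These 5 passed with the replicate number as a block, which pairs each IP with the input of its own preparation, and not without it. With the block and quantile normalization together 0 of the 35 genes passed, against 172 higher and 159 lower of all 9496 genes. With 1 number left out of the blocked fit only Hadha passed without number 1, against 84 higher and 145 lower of all genes. None of the 35 passed without number 2 or 3, where 0 of all genes passed. Errors beside differences are standard errors (SE) of the fit without the block. In that fit on all 12 arrays, none of the 35 genes passed an adjusted p under 0.05 (limma) in the difference between WT IP and WT input. At an unadjusted p under 0.05, 1 was higher and 3 were lower, against 4.58% and 6.03% of all genes. Over all 9496 genes that fit called 0.105% higher and 0% lower in WT IP. With the block, the counts of 1 higher and 4 lower are 2.86% and 11.4% of the 35 genes, against a background of 2.41% higher and 4.61% lower over all genes. The same 5 genes passed with the number shared by all groups as the block, where the background was 3.81% higher and 7.86% lower. The difference was positive for 9 and negative for 26 of the 35 genes, against 41.6% and 58.4% of all genes, and its median was -0.24, with -0.11 for all genes. Among brighter genes, past a filter at the 60th percentile, the median was -0.26 for the 26 pathway genes left and -0.21 for all genes. After array medians were subtracted, 25 of the 35 and 47.7% of all genes were negative. It had the same positive sign in all 3 preparations for 4 genes and the same negative sign for 13, against 19% and 33% of all genes. In all, 2 genes (Crat and Pdk4) had WT IP values above all WT input values and 2 (Decr2 and Bdh1) below all of them, against 7.72% and 7.59% of all genes.

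In the control precipitation from KO cells, 3 genes, Acot4 and Ehhadh of the peroxisome and Hadha of the mitochondrion, were lower than in the input with the block. With quantile normalization added only Acot4 passed, against 3 higher and 30 lower of all 9496 genes. With 1 number left out of the blocked fit only Hadha passed without number 1, against 0 higher and 41 lower of all genes. None of the 35 passed without number 2 or 3, where 0 of all genes passed. Without the block no gene passed in KO IP minus KO input, against a background of 0% called in each direction (limma). At an unadjusted p under 0.05 there were 0 higher and 6 lower genes, against 2.97% and 8% of all genes. With the block, 0 were higher and 3 lower, which is 8.57% of the 35 genes against 0.727% higher and 5.28% lower over all genes. The difference was positive for 7 and negative for 28 genes, against 34.1% and 65.9% of all genes, with a median of -0.29 against -0.21. With the filter at the 60th percentile, the median was -0.29 for the 26 pathway genes left and -0.29 for all genes. The split depended on the scaling: 21 of the 35 and 53.5% of all genes were negative after quantile normalization, and 19 and 43.4% after array medians were subtracted. It was positive in all 3 preparations for 2 genes and negative in all 3 for 19, against 12.8% and 35.3%. KO IP values lay below all KO input values for 6 genes (Acadl, Acadvl, Acot4, Decr2, Etfdh and Bdh1) and above all of them for 1 (Acot3), against 10.1% and 5.31% of all genes. Acot3 averaged 5.27 in KO input, below the filter level of 5.57, and passed the filter through its IP arrays. With the number shared by all 4 groups as the block, 7 passed, Hadhb being higher and Acads, Acot4, Bdh1, Ehhadh, Etfa and Hadha lower, against 1.85% higher and 9.45% lower over all genes.

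**Figure D3:**
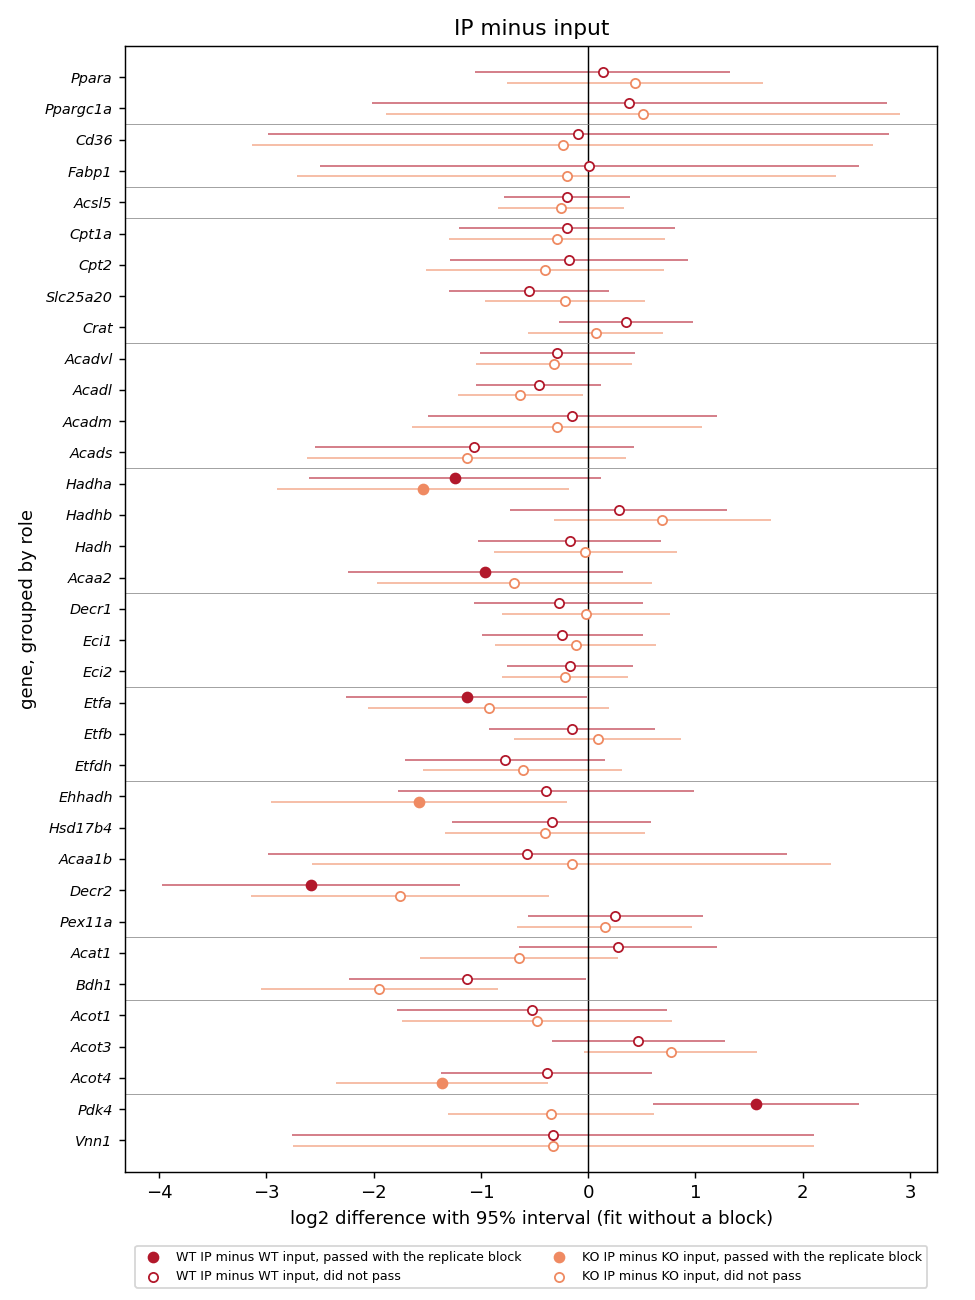
IP minus input difference in log2 units for each of the 35 genes, grouped by role, in wild-type and in knockout hepatocytes, with the 95% interval of the fit without a block and filled points where the adjusted p passed with the replicate block. Most differences lie below 0 in both genotypes at the deposited scaling, fewer in KO cells after rescaling (19 of 35 with array medians subtracted), and Pdk4 lies at 1.56 in WT and -0.35 in KO cells.

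The first step of the mitochondrial cycle, run by the acyl-CoA dehydrogenases, had a negative IP minus input difference for 4 of 4 genes in each genotype (3 of 4 in WT cells after quantile normalization), and none passed with or without the preparation as the block. Acadl, the long-chain enzyme, had 10.79, 10.22 and 10.07 in WT IP, 10.32, 10.31 and 10.31 in KO IP, 10.89, 10.96 and 10.99 in KO input and 11.06, 10.80 and 10.60 in WT input arrays. The KO IP values lay below all KO inputs, by 0.63 ± 0.27 on average (SE), with an adjusted p of 0.0771 with the block, while WT IP overlapped WT input. The other dehydrogenases, Acadvl, Acadm and Acads for very long, medium and short chains, differed by -0.15 to -1.06 in WT and by -0.29 to -1.13 in KO cells.

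The electrons from that step pass to the electron transfer flavoprotein, whose α subunit is Etfa, and Etfb and Etfdh complete the relay to the respiratory chain. Etfa had 9.37, 10.49 and 8.99 in WT IP, 9.26, 10.94 and 9.64 in KO IP, 10.87, 11.35 and 10.40 in KO input and 10.73, 11.31 and 10.20 in WT input arrays. Each IP was lower than the input of its own number, by 1.37, 0.83 and 1.21 in WT preparations 1, 2 and 3. The WT difference of -1.13 ± 0.51 had an adjusted p of 0.463 without the block and 0.0393 with it, and the KO difference of -0.93 had 0.0669 with it.

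The trifunctional protein, which hydrates, dehydrogenates and cleaves long-chain intermediates, is made of the α subunit Hadha and the β subunit Hadhb. Their genes start head to head on chromosome 5, with start sites 273 bases apart, so the promoter windows of the pair share 228 bases. The windows below run 5′ to 3′ on each gene's own strand, from RefSeq on GRCm38.p6, with the shared bases in capitals.
Hadha, chr5:30154931-30155230, minus strand: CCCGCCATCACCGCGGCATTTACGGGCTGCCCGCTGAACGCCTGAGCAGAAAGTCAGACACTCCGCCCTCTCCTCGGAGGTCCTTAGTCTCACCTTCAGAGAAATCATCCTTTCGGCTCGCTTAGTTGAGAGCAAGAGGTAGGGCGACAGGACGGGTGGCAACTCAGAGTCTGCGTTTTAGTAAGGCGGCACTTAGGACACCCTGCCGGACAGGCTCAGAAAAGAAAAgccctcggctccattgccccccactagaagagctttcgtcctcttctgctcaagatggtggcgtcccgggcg
Hadhb, chr5:30155003-30155302, plus strand: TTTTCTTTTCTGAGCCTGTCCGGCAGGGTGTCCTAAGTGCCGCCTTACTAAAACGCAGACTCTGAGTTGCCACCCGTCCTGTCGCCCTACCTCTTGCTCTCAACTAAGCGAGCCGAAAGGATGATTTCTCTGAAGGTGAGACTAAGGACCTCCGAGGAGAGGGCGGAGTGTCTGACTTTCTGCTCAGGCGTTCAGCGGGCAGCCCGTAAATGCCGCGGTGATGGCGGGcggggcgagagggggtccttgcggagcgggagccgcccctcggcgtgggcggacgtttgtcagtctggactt
The shared stretch reads in opposite directions in the pair.

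The IP minus input differences of the subunits had opposite signs. Hadha had 9.91, 8.18 and 8.28 in WT IP, 9.79, 7.63 and 7.99 in KO IP, 10.58, 9.62 and 9.82 in KO input and 10.83, 9.58 and 9.69 in WT input arrays. Every IP value lay below the input of its own number, by 0.92, 1.40 and 1.41 in WT and by 0.79, 1.99 and 1.83 in KO cells. Hadha fell by 1.24 ± 0.62 in WT IP and by 1.54 ± 0.62 in KO IP, 2.37-fold and 2.90-fold lower, with adjusted p of 0.0351 and 0.0256 with the block and 0.524 and 0.403 without it. Hadhb had 11.08, 11.85 and 11.92 in WT IP, 11.09, 12.14 and 12.43 in KO IP, 10.35, 11.60 and 11.63 in KO input and 10.82, 11.74 and 11.44 in WT input arrays. Its IP minus input difference was positive, 0.28 ± 0.46 in WT and 0.69 ± 0.46 in KO cells, with adjusted p of 0.362 and 0.0652 with the block. The difference between the subunits was not tested.

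Acaa2 encodes the mitochondrial thiolase of the last step. Its level was 9.52, 10.00 and 8.50 in WT IP, 9.72, 10.21 and 9.12 in KO IP, 10.60, 11.07 and 9.44 in KO input and 10.68, 11.07 and 9.14 in WT input arrays. The IP was the lower of the pair in every preparation. The WT difference of -0.96 ± 0.59 had an adjusted p of 0.0385 with the block and 0.597 without, and the KO difference of -0.69 had 0.0863 with the block. Hadh, the hydroxyacyl-CoA dehydrogenase of shorter chains, differed by -0.17 ± 0.39 in WT and by -0.025 ± 0.39 in KO cells and did not pass. Of the enzymes that feed unsaturated chains into the cycle, Decr1, Eci1 and Eci2, none passed. Their differences were -0.28 to -0.17 in WT and -0.21 to -0.018 in KO cells, and in KO cells all 3 were positive after quantile normalization or with array medians subtracted. Eci2, an enoyl-CoA isomerase, had 9.51, 9.56 and 9.15 in WT IP, 9.34, 9.54 and 9.21 in KO IP, 9.72, 9.70 and 9.31 in KO input and 9.89, 9.42 and 9.41 in WT input arrays, with overlapping groups.

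Among the peroxisomal genes, Decr2 held the largest negative difference of the 35 genes in WT cells. Decr2, the peroxisomal dienoyl-CoA reductase, had 4.58, 7.21 and 4.69 in WT IP, 5.88, 6.36 and 6.90 in KO IP, 8.73, 8.08 and 7.59 in KO input and 8.68, 8.10 and 7.45 in WT input arrays. All IP values lay below all input values. It fell by 2.58 ± 0.64 in WT IP, with paired differences of -4.10, -0.89 and -2.76 and an adjusted p of 0.0371 with the block and 0.170 without. Its WT IP values of 4.58 and 4.69 lay below 5.57, the mean level that the filter on dim genes required. With 1 array left out and no block, the adjusted p was 0.0369 without replicate 2 of WT IP (difference -3.44) and 0.167 to 0.564 without each other array. In the blocked fit it was 0.0942, 0.207 and 0.182 without number 1, 2 and 3, and 0.0590 after quantile normalization, so the call was lost in each. In KO cells the difference was -1.75 ± 0.64, with an adjusted p of 0.0932 with the block.

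Ehhadh, the bifunctional enzyme of peroxisomal oxidation and a classical PPARA target, had 7.30, 8.28 and 6.84 in WT IP, 6.10, 7.78 and 6.17 in KO IP, 8.34, 9.00 and 7.44 in KO input and 8.01, 8.82 and 6.78 in WT input arrays. The KO IP was lower than its input in each preparation, by 2.24, 1.22 and 1.27. It fell by 1.58 ± 0.63 in KO IP, with an adjusted p of 0.0249 with the block and 0.396 without, and the WT difference was -0.39. Hsd17b4, Pex11a and Acaa1b, an enzyme, a peroxisome proliferation factor and a thiolase, did not pass in either genotype. Acaa1b shares close sequence with Acaa1a, so its probe set may read both.

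Of the ketone body genes, Bdh1 encodes the mitochondrial dehydrogenase that makes hydroxybutyrate. Its level was 6.31, 5.70 and 5.13 in WT IP, 5.36, 4.06 and 5.82 in KO IP, 6.78, 7.83 and 6.47 in KO input and 6.92, 7.18 and 6.42 in WT input arrays. Every IP value was below every input value. Those of 5.13 in WT IP and 5.36 and 4.06 in KO IP also lay below the filter level of 5.57. The KO difference was -1.95 ± 0.51, with an adjusted p of 0.0552 with the preparation as the block and 0.0327 with a block of the number shared by all groups. The WT difference was -1.13 ± 0.51, with 0.186 with the block. Acat1, the thiolase that joins acetyl-CoA units, had 7.60, 8.48 and 7.56 in WT IP, 6.18, 7.66 and 7.17 in KO IP, 7.41, 8.22 and 7.33 in KO input and 7.51, 7.90 and 7.39 in WT input arrays. WT IP exceeded KO IP in each number, by 1.42, 0.81 and 0.38, although the groups overlapped, and the difference of 0.87 ± 0.42 had an adjusted p of 0.109 with the block.

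The type I acyl-CoA thioesterases, which release free fatty acids, form a cluster on chromosome 12, where Acot1, Acot4 and Acot3 start on the plus strand with Acot1 to Acot4 28877 bases and Acot4 to Acot3 13765 bases apart. Their sequences are close, so signal could cross between their probe sets. Acot1, of the cytosol, had 6.90, 5.79 and 5.73 in WT IP, 6.49, 5.90 and 5.55 in KO IP, 6.90, 6.30 and 6.18 in KO input and 8.13, 6.21 and 5.64 in WT input arrays, with number 1 highest in each group and all groups overlapping. Acot4, of the peroxisome, had 6.03, 5.78 and 5.41 in WT IP, 4.77, 5.63 and 4.40 in KO IP, 6.40, 6.78 and 5.71 in KO input and 6.58, 6.57 and 5.24 in WT input arrays. All KO IP values lay below all KO inputs, whereas WT IP overlapped WT input. Acot4 fell by 1.36 ± 0.45 in KO IP, with an adjusted p of 0.0256 with the block and 0.312 without, and its WT difference of -0.39 ± 0.45 had 0.315 with the block. Its KO IP values of 4.77 and 4.40 lay below the filter level of 5.57. Acot3 lay the other way, at 0.77 in KO and 0.47 in WT cells, and did not pass. Its input means, 5.27 in KO and 5.35 in WT cells, lay below the filter level of 5.57. It passed that filter through its IP arrays, which averaged 6.04 in KO and 5.81 in WT cells.

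Pdk4 encodes a kinase that shuts pyruvate dehydrogenase and so spares glucose while fat is burnt. Its promoter is shown because Pdk4 was the single gene of the 35 called higher in WT IP. It lies on chromosome 6, minus strand of GRCm38.p6 (RefSeq), and capitals mark ATTGG, the reverse complement of CCAAT, which begins 131 bases before the start site.
Pdk4, chr6:5496229-5496528, minus strand: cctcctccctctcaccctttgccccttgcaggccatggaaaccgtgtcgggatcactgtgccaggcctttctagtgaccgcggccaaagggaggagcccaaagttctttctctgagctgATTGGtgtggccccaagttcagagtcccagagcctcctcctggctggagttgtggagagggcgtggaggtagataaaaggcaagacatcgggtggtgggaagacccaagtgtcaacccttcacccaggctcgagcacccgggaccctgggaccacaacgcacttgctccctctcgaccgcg
CCAAT on either strand stood in 14 of the 29 windows available for these genes (48.3%), against 37.9% of 27025 mouse promoters. GGGCGG, searched in the same way, stood in 18 of the 29 (62.1% against 35.9%) and TATAAA in 2 (6.9% against 14.2%). The median GC content was 58% in the 29 windows and 52.7% in all. The sequence AGGTCA, to which nuclear receptors bind, on either strand, stood in 7 of the 29 (24.1%: Acadm, Acadvl, Acot3, Acot4, Cd36, Cpt1a and Fabp1), against 16% of all, and its direct repeat with a single base N between the copies in 0 of 29, against 0.0444%.

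Pdk4 had 7.43, 7.56 and 7.65 in WT IP, 6.17, 5.67 and 5.79 in KO IP, 5.82, 5.48 and 7.36 in KO input and 5.80, 5.65 and 6.49 in WT input arrays. The 3 WT IP values lay above all other 9 arrays, of which number 3 of KO input came nearest. Set against WT input it was 1.56 ± 0.44 higher, 2.95-fold, with differences of 1.63, 1.90 and 1.15 and an adjusted p of 0.0403 with the block and 0.232 without. Set against KO IP it was 1.67 ± 0.44 higher, 3.18-fold, with differences of 1.26, 1.88 and 1.86 and adjusted p of 0.0314 and 0.250 in the same order. In KO cells the IP minus input difference was -0.35, with 0.34, 0.19 and -1.58 by number. After quantile normalization, the blocked adjusted p was 0.0514 against WT input and 0.0221 against KO IP. With 1 number left out of the blocked fit, an alternative chosen after seeing the data, Pdk4 no longer passed in either comparison, at 0.100 to 0.261 against WT input and 0.0769 to 0.264 against KO IP.

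**Figure D4:**
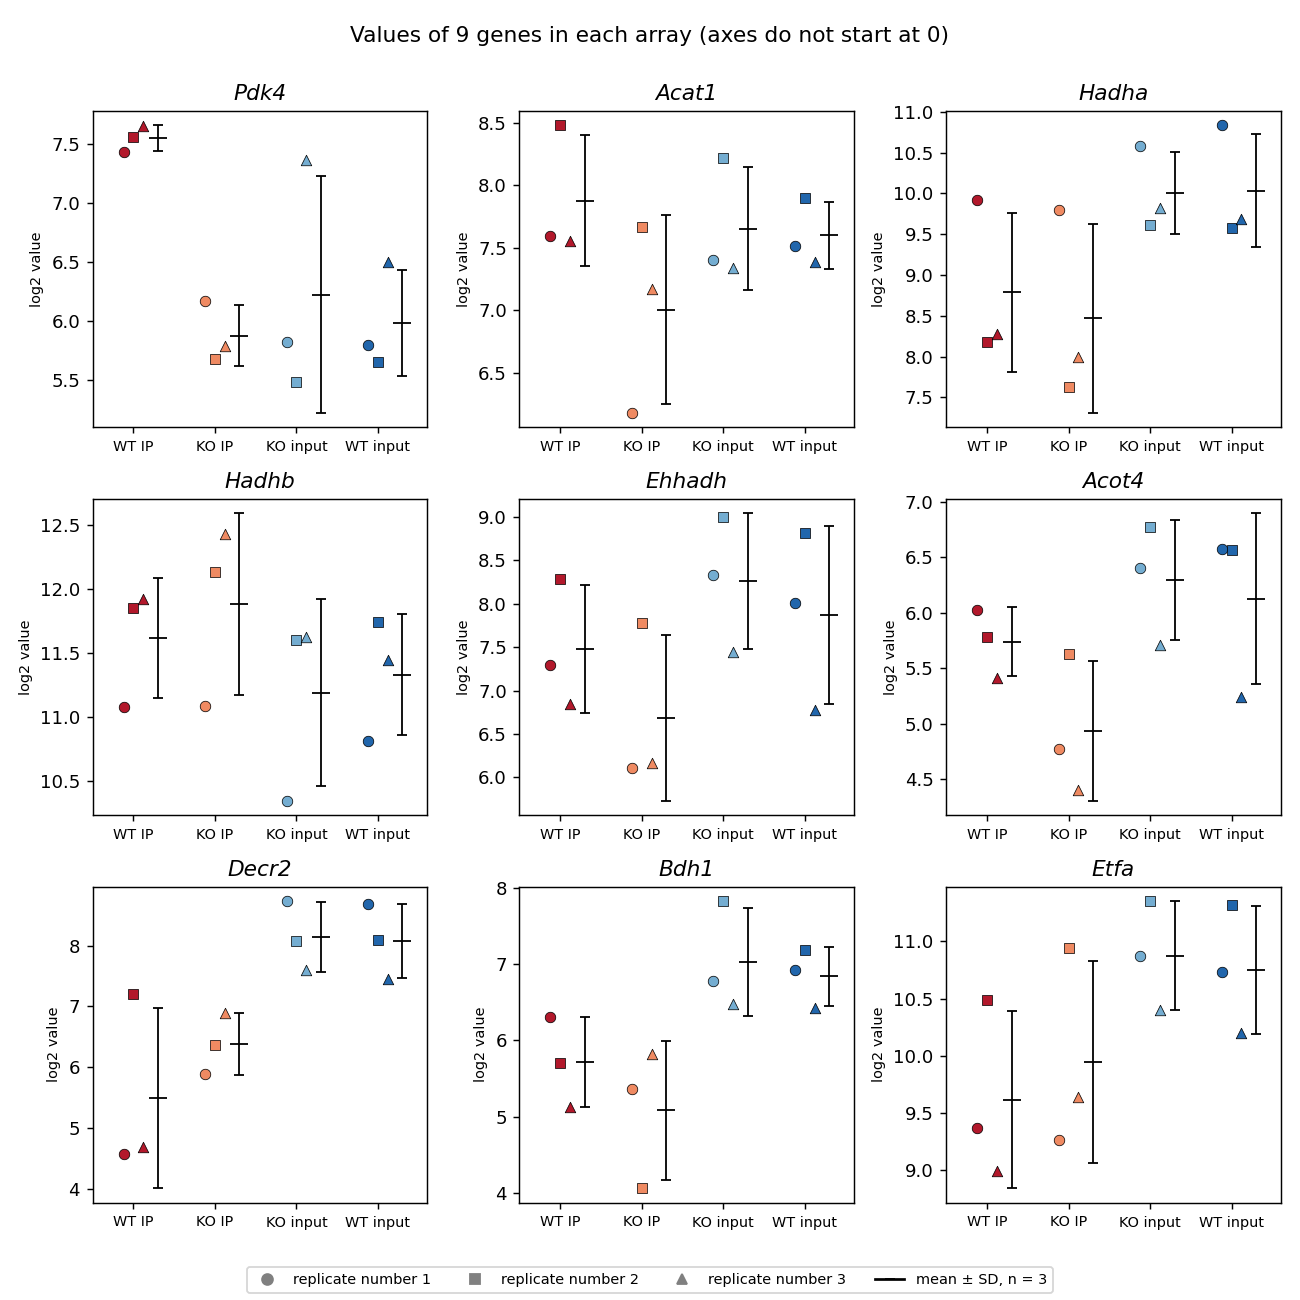
Log2 level of 9 genes in each array, groups in the order WT IP, KO IP, KO input and WT input, with a symbol for each replicate number and the group mean ± SD (n = 3) beside them. The WT IP values of Pdk4, 7.43 to 7.65, lie above all its other arrays, and the IP values of Decr2 lie below all its inputs.

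The comparison on which the negative control bears is the difference of differences, WT IP minus WT input less KO IP minus KO input, here called the specific difference. No gene of the 35 passed with or without the block (limma), and 0 of 35 stands against 0.0105% higher and 0% lower over all genes without the block and 0.0211% and 0% with it. At an unadjusted p under 0.05 without the block, 1 of the 35 was higher and 0 lower, against 1.83% and 0.147% of all genes. The median was 0.04 for the 35 genes and 0.05 for all genes. The specific difference was positive for 19 and negative for 16 genes, against 55.8% and 44.2% of all genes, and kept its sign in all 3 numbers for 6 positive and 4 negative genes, against 21.4% and 13.7%. After quantile normalization 12 were positive and 23 negative, against 46.7% and 53.3% of all genes, and with array medians subtracted 10 and 25, against 40% and 60%. With the number shared by all groups as the block, 0 passed against 0.284% higher and 0% lower. Pdk4 had the largest value, 1.91 ± 0.62 (3.76-fold), with 1.29, 1.71 and 2.73 by number, and an adjusted p of 0.323 with the block. Its WT differences lay above all 3 KO differences, as did those of Acat1, Acot4 and Ehhadh, and those of Hadhb lay below them, so 4 genes were higher and 1 lower without overlap, 11.4% and 2.86% against 7.94% and 2.58% of all genes. Ehhadh had a specific difference of 1.18 ± 0.89, Acot4 of 0.97 ± 0.64, Acat1 of 0.92 ± 0.60 and Hadhb of -0.41, and the blocked adjusted p was 0.506, 0.580 and 0.676 for the first 3. The blocked 95% interval lay within ±1 for 17 of the 35 genes, and for the others it reached past a difference of 1 in at least one direction.

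Between the precipitates themselves, Pdk4 was higher in WT IP and no other gene of the 35 passed. No gene was called without the block and Pdk4 alone with it, 1 of 35 against 2.33% of all genes higher and 0.126% lower in WT IP. Without the block the calls over all genes were 0.253% higher and 0% lower in WT IP. At an unadjusted p under 0.05 without the block, 1 gene was higher and 0 lower, against 4.78% and 0.611%. The difference was positive for 17 genes and negative for 18, against 54.1% and 45.9% of all genes, and had 1 sign in all 3 numbers for 5 positive and 4 negative genes, against 20.1% and 14.2%. The split was 14 and 21 after quantile normalization, against 46.2% and 53.8% of all genes, and 11 and 24 with array medians subtracted, against 39.4% and 60.6%. In this comparison Pdk4 was the only gene of the 35 whose WT IP values lay above all KO IP values, with 0 below, against 5.44% and 1.35% of all genes.

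Loss of Cnot6l was compared in the inputs, which measure steady mRNA levels. No gene of the 35 passed in KO input minus WT input, with or without the block, and none had an unadjusted p under 0.05, against a background of 0% called in each direction (limma), where the unadjusted threshold was passed upward by 0.0316% and downward by 0.0211% of all genes. None of the 35 had KO inputs all above or all below the WT inputs, against 0.663% and 0.958% of all genes. The difference was positive for 27 and negative for 8 genes, against 53.9% and 46.1% of all genes, but it had the same positive sign in all 3 numbers for 3 genes alone and the same negative sign for 1, against 16.1% and 13% of all genes. Differences ran from -0.62 to 0.39, and their median of 0.05 compares with 0.02 for all genes and with an SD of 0.159 between the medians of the 3 numbers. The blocked 95% interval lay within ±1 for 28 genes, the exceptions being Cd36, Fabp1, Ppara, Ppargc1a, Acaa1b, Decr2 and Bdh1, and the widest, of Ppargc1a, ran from -1.14 to 1.82.

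**Figure D5:**
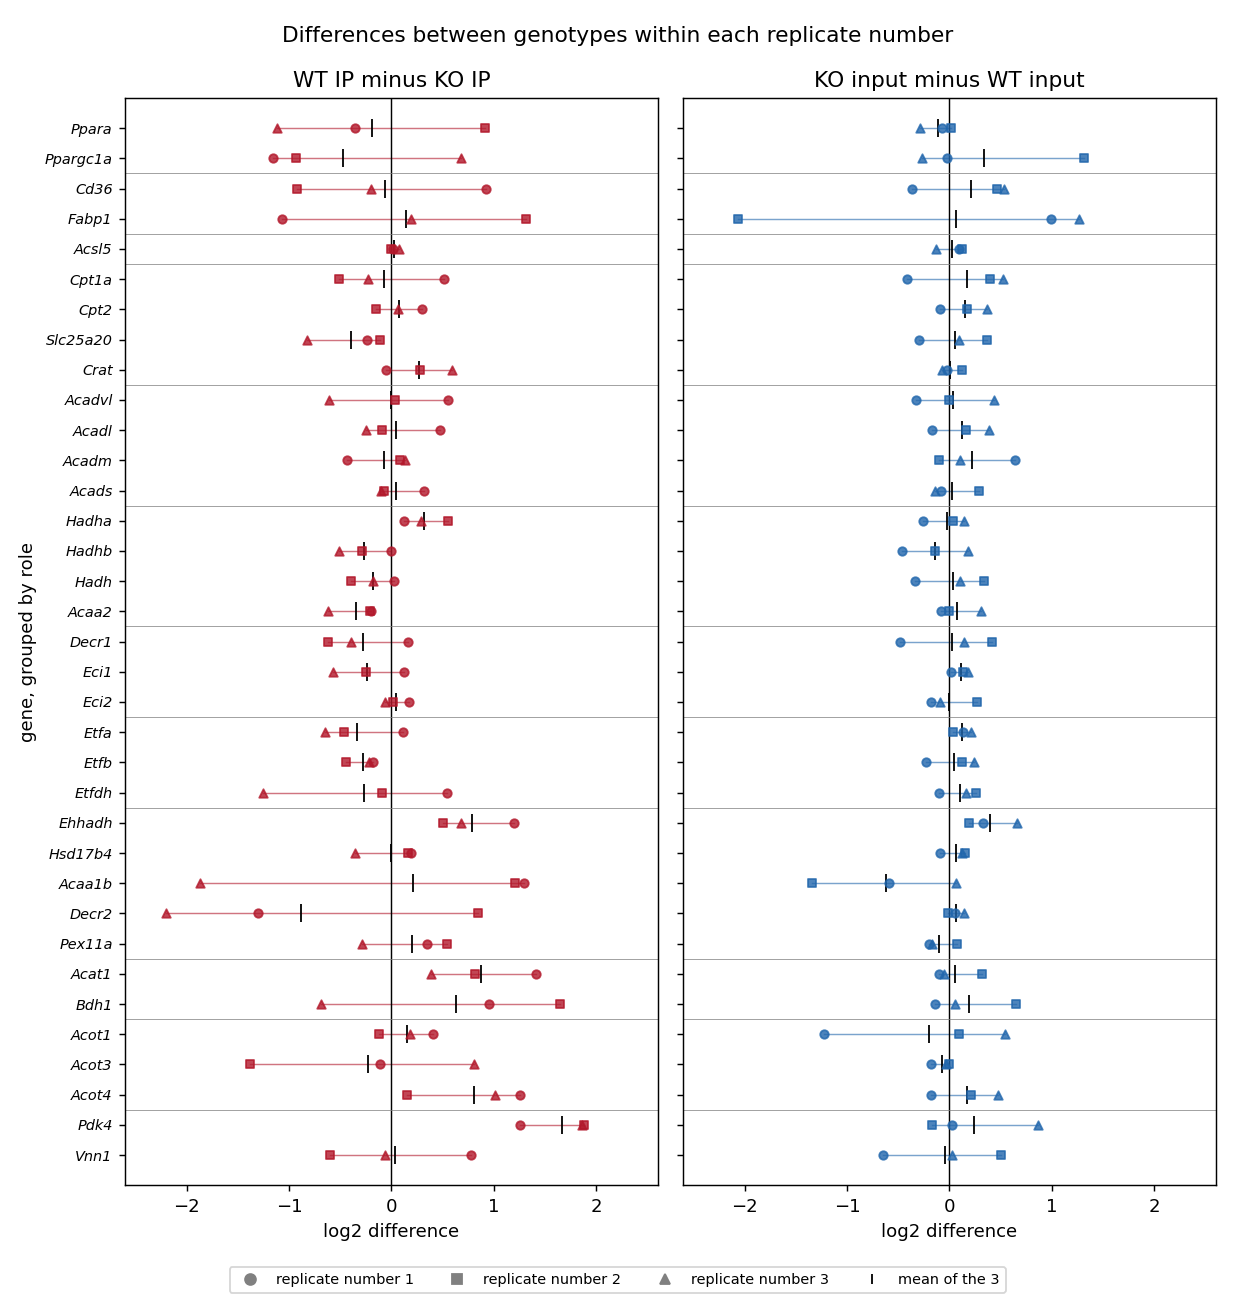
Differences in log2 units between genotypes for each of the 35 genes, grouped by role, with a symbol for each of the 3 replicate numbers and a tick at their mean: WT IP minus KO IP on the left and KO input minus WT input on the right. All mean differences between the inputs lie between -0.62 and 0.39, and Pdk4 lies at 1.67 on the left.

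The wider pathway was followed in a list of 90 further genes, of which 78 were on the array and 70 were tested. Without the block 1 of the 70 (1.43%) was higher in WT IP than in WT input, against 0.105% of all genes. With it 2 were higher and 1 lower, 2.86% and 1.43% of the 70 against 2.41% and 4.61% of all genes, while 0 were higher and 2 (2.86%) lower in KO IP than in KO input, against 0.727% and 5.28%. The shares with the block lie near or below those of all genes. Fgf21, the fasting hormone that PPARA induces in liver, averaged 10.06 in WT IP, 6.99 in KO IP, 7.33 in KO input and 7.27 in WT input arrays, and it rose by 2.79 ± 0.35 in WT IP over WT input (adjusted p = 0.00880 without the block, 0.00546 with it) and by 3.07 ± 0.35 over KO IP (0.00605 and 0.000760). Its specific difference of 3.13 ± 0.49 had an adjusted p of 0.116 without the block, 0.0571 with it and 0.0159 with the number shared by all groups as the block. With the shared number as the block, 1 of the 70 (1.43%) was called higher in the specific difference, against 0.284% of all genes. Echs1, the mitochondrial enoyl-CoA hydratase, averaged 8.94 in WT IP, 8.72 in KO IP, 10.39 in KO input and 10.34 in WT input arrays, and with the block it fell by 1.40 ± 0.38 in WT IP (adjusted p = 0.0166) and by 1.67 ± 0.38 in KO IP (0.0168). Acsl3, an acyl-CoA synthetase, rose by 1.28 ± 0.68 in WT IP over WT input with the block (adjusted p = 0.0247), and Pdk1, a kinase of pyruvate dehydrogenase, fell by 1.27 ± 0.82 in KO IP below KO input (0.0481). The genes of the list with the next smallest p did not pass: Mlycd at 0.50 and Sirt1 at 0.49 in the specific difference, Pex11g at -1.18 and Acad9 at -0.78 in WT cells, and Pex5 at -1.63 in KO cells. Between the inputs, where 0 of the 70 passed, Sirt1 stood at 0.49, Bdh2 at 0.55, Slc27a1 at -0.27 and Abcd3 at 0.24, and between the precipitates Mmut stood at -0.51, Lpin1 at 0.87 and Mlycd at 0.37.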

How the data were processed

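Expression was measured on 12 Affymetrix arrays, each with RNA of 1 hepatocyte sample, in 4 groups of 3 (WT IP, KO IP, KO input and WT input). The values are those the authors deposited, on a log2 scale as their range of 2.30 to 15.14 shows, with 1 value per probe set. The authors' background correction and normalization, not given in the sources used here, were kept. Of 16539 probe sets, 64 were controls, 15780 carried 1 gene symbol, 0 several, and 695 were unnamed here. Entrez identifiers of 15752 matched the RefSeq table of GRCm38.p6, with equal symbols.

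The 9496 genes with a mean level of 5.57 or more, the 40th percentile over probe sets, were tested. Differences were fitted with limma 3.58.1 in R 4.3.3 on group means over all arrays (8 residual degrees of freedom), in 5 comparisons, with Benjamini-Hochberg adjustment over the 9496 genes and a threshold of 0.05. All tests are two-sided, and every adjusted p is limma's. Arrays have no sequencing depth: precision is limited by how many there are.

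The replicate numbers were checked for pairing before calls were compared. With group means removed, the 18 pairs of same-numbered arrays correlated across all genes at 0.453 to 0.936 and the 36 pairs of different numbers at -0.711 to 0.0685. The numbers were taken to pair the samples. That an IP and an input share a preparation is in the series text. The pairing across genotypes rests on the values, as KO and WT inputs of one number correlated at 0.983 to 0.990, above the 0.862 to 0.957 of inputs of one genotype with unlike numbers. The replicate block is the preparation for IP against input and for the specific difference (4 residual degrees of freedom) and the number between genotypes (6). Alternatives were this block, a block of the number shared by all groups, quantile normalization, centring on array medians, other filters and leaving out each array.

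The members and lists were chosen with earlier results of these data known. Arrays are given in full for Ppara, Ppargc1a, Cpt1a, Cd36, Acot1, Pdk4, every gene called with or without the block, and the gene with the smallest p in a role group that would otherwise have none. Values of Fabp1, Vnn1, Bdh1, Acat1 and Hadhb were added where the text turns on them, after they were seen. Of the further pathway genes, up to 4 with the smallest p per comparison are named, and Acsl3 and Pdk1 because they were called. Standard errors are those of the fit without the block. Promoter windows, 250 bases before to 50 after the start, come from RefSeq (GRCm38.p6) and were matched for 29 of the 35 genes. Plots were made in matplotlib 3.10.9 (Python 3.11.15).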

Additional observations from a re-analysis of the deposited data

How the results depend on the processing

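For the 16 of the 35 genes whose values were recomputed under each alternative, no difference that passed in any of them changed sign in another. For Hadhb, Acads and the genes of the wider list this was not computed. Without the replicate block 0 of the 35 genes were called in each comparison. With it, 5 were called in WT IP minus WT input under either form of block, 3 in KO IP minus KO input with the preparation as the block and 7 with the number shared by all groups, and 1 in WT IP minus KO IP under either form. With the block and quantile normalization together, 0 were called in WT IP minus WT input, 1 was called in KO IP minus KO input (Acot4) and 1 in WT IP minus KO IP (Pdk4). Over all 9496 genes that setting called 172 higher and 159 lower, 3 higher and 30 lower, and 161 higher and 15 lower, in the same order. In the blocked fit without replicate number 1, an alternative chosen after seeing the data, 1 was called (Hadha) in WT IP minus WT input and 1 in KO IP minus KO input, and without number 2 or number 3 the count was 0. Over all genes the fit without number 1 called 84 higher and 145 lower in WT cells and 0 higher and 41 lower in KO cells. Without number 2 or 3 it called 0 of all genes in these comparisons. Leaving out 1 array with no block gave 0 to 1 calls in WT IP minus WT input, the 1 being Decr2 without replicate 2 of WT IP. Over all genes the fit without that array called 6 higher and 1 lower. The block called no gene in the specific difference or between the inputs.

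Medians over the 35 genes moved with the scaling. Quantile normalization, with or without the replicate block, gave -0.0425 for the specific difference, -0.10 for WT IP minus WT input and -0.0898 for KO IP minus KO input, and subtracting array medians gave -0.10, -0.10 and -0.00359 in the same order. The median over all genes was then -0.04 in both genotypes with quantile normalization and 0.03 and 0.08 in WT and KO cells with array medians subtracted, so the share of negative differences is relative to that shift. With each array, or each replicate number, left out, the medians ran over -0.20 to 0.25 (specific), -0.50 to -0.0636 (WT IP minus WT input), -0.36 to -0.29 (KO IP minus KO input), -0.14 to 0.19 (KO input minus WT input) and -0.23 to 0.19 (WT IP minus KO IP). The cause of these moves was not tested.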
